A study of Rattus norvegicus with 30 samples.

Results

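S100a8 and S100a9 encode the subunits of calprotectin. Their transcripts were followed array by array in 30 male Sprague-Dawley rats, in tissue labelled as epithelium of the oesophagus. S100a8 and S100a9 are 2 of the 14217 genes with a name in the deposited array table, and each was read by 1 of the 31099 probe sets. All 30 rats had received N-nitrosomethylbenzylamine (NMBA), a nitrosamine that causes tumours of the rodent oesophagus, in 4 doses of 2 mg/kg from week 5 of the experiment. Of the unedited rats, 5 were on a zinc-deficient (ZD) diet and 5 on a zinc-sufficient (ZS) diet, both labelled untreated. Diets began at 4 weeks of age, and the ZS rats were pair-fed to the ZD rats. A further 5 ZD rats were given a locked nucleic acid oligonucleotide against miR-31 (antimiR) over 5 weeks, beginning with 20 mg/kg and going on with 9 injections of 6 mg/kg. Another 5 ZD rats were given 20 additional doses, over 20 weeks in all. The last 10 rats lacked miR-31 through a constitutive CRISPR/Cas9 deletion, 6 on ZD and 4 on ZS.

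The untreated controls received no control oligonucleotide that the labels name, so dosing as such and inhibition of miR-31 cannot be told apart. Per the labels, tissue was taken either shortly after the last antimiR dose or 15 weeks after the first NMBA dose, and the age of the 5-week rats at sampling is not settled by them. The knockouts were a separate experiment, and their wild-type littermates were not analysed here. The labels do not say how many founders the knockout line has. miR-31 itself was not measured on these arrays, so neither its inhibition nor its deletion could be checked.

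Calprotectin is a calcium-binding heterodimer that also binds zinc and manganese and so withholds these metals from microbes. Neutrophils and monocytes hold it in large amounts, and stratified squamous epithelia make it as well, at a low level when resting and at a high level in wounds, infection and hyperplasia. Released calprotectin acts as an alarm signal through receptors such as Tlr4, and it is known to be raised in the hyperplastic oesophagus of zinc-deficient rats. In bulk tissue, fewer cells that express a gene and less of its RNA per cell cannot be told apart.

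Both sequences come from RefSeq tables of the rat assembly GRCr8. The S100a9 promoter is shown because transcription factors that are known to act on it, C/EBP members among them, were measured on the same arrays. It covers chr2:178490573-178490872 on the minus strand, from 250 bases before to 50 bases after the start of the gene, and capitals mark the C/EBP and TATA box matches. The mature miR-31 is shown because it is what the antimiR pairs with and what the knockout removes. It lies at chr5:108714906-108714927 on the minus strand, and capitals mark its seed, bases 2 to 8.
S100a9 promoter: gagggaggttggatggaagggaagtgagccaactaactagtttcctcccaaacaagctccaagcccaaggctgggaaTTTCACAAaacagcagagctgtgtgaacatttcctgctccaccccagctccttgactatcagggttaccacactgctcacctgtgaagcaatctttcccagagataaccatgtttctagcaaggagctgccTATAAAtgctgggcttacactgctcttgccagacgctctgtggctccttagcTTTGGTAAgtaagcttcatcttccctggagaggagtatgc
rno-miR-31a-5p: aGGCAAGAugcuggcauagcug

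C/EBP factors drive myeloid and keratinocyte genes, and their motif TTNNGNAA, searched on both strands, had 2 matches in the S100a9 promoter. These began 173 bases before the start (TTTCACAA, the motif read on the reverse strand) and at base 11 after it (TTTGGTAA). Of all 33469 promoters of the same length, 41.3% held a match. A TATA box, TATAAA, began 42 bases before the start and was found in 14.2% of promoters. An E-box, CANNTG, began 96 bases before the start and was found in 72.1% of promoters. The AP-1 motif TGANTCA (7.3% of promoters), the NF-kB motif (5.0%), the STAT motif TTCNNNGAA (8.9%) and the ETS motif AGGAAG (34.5%) had no match in this window. The matches did not overlap each other, and a match is a description of letters only.

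Values are log2 expression units. The 20 unedited arrays had medians from 5.37 to 5.45, the 10 knockout arrays medians from 5.81 to 5.93, as if the sets had been normalized apart. Levels and changes across these sets are therefore confounded with the experiment. Squamous RNA was plentiful: the mean of 12 measured squamous markers such as Krt5 and Krt13 lay between 12.55 and 12.96 in every group. In each group 0 of the 12 fell under the median gene of the arrays. Muscle RNA was present as well. The mean of 14 smooth muscle markers ran from 7.39 to 11.70 over the arrays, and 0 to 2 of the 14 fell under that median. The mean of 14 skeletal muscle markers ran from 5.28 to 10.24. No pair of arrays was identical. Processing days are not given in the sources used here, and p-values measure the spread between these samples.

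S100a8 was highest in untreated ZD rats, at 11.67, 11.45, 10.72, 10.70 and 8.56, a mean of 10.62 (SD 1.23, n = 5). In untreated ZS rats it stood at 9.28, 7.21, 6.58, 6.25 and 3.84, a mean of 6.63 (SD 1.95, n = 5). The diets overlapped through ZD array 15, the lowest of its group, and ZS array 18, the highest of its group. After 5 weeks of antimiR the values were 10.63, 10.18, 9.82, 9.09 and 8.49, a mean of 9.64 (SD 0.86, n = 5). After 20 weeks they were 10.07, 8.30, 7.09, 6.41 and 5.94, a mean of 7.57 (SD 1.66, n = 5). All 5 rats of the 5-week group lay within or just under the untreated ZD range, whereas 4 of the 5 rats of the 20-week group lay under it and array 2 lay inside it. In ZD knockout rats the lowest, median and highest values were 6.14, 8.74 and 10.50, a mean of 8.44 (SD 1.56, n = 6). In ZS knockout rats the values were 9.30, 6.66, 5.73 and 3.56, a mean of 6.31 (SD 2.38, n = 4).

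S100a9 stood at 12.21, 11.20, 10.71, 10.57 and 7.61 in untreated ZD rats, a mean of 10.46 (SD 1.72, n = 5). In untreated ZS rats it stood at 9.35, 7.88, 7.33, 7.10 and 5.17, a mean of 7.36 (SD 1.51, n = 5). The arrays at the edges were those of S100a8: array 15 was lowest on ZD, array 18 highest and array 19 lowest on ZS. After 5 weeks of antimiR the values formed an upper set of 10.55, 10.51 and 9.86 and a lower set of 7.17 and 6.49, a mean of 8.92 (SD 1.94, n = 5). After 20 weeks they were 9.41, 6.20, 6.19, 4.81 and 4.51, a mean of 6.22 (SD 1.94, n = 5). Both 5-week arrays of the lower set, 9 and 10, lay under every untreated ZD array. The 20-week array 2 again stood above its group, and the other 4 lay under every untreated ZD array. In ZD knockout rats the lowest, median and highest values were 5.97, 7.50 and 10.56, a mean of 7.90 (SD 2.01, n = 6). In ZS knockout rats the values were 9.27, 7.24, 6.50 and 4.22, a mean of 6.81 (SD 2.08, n = 4).

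**Figure D1:**
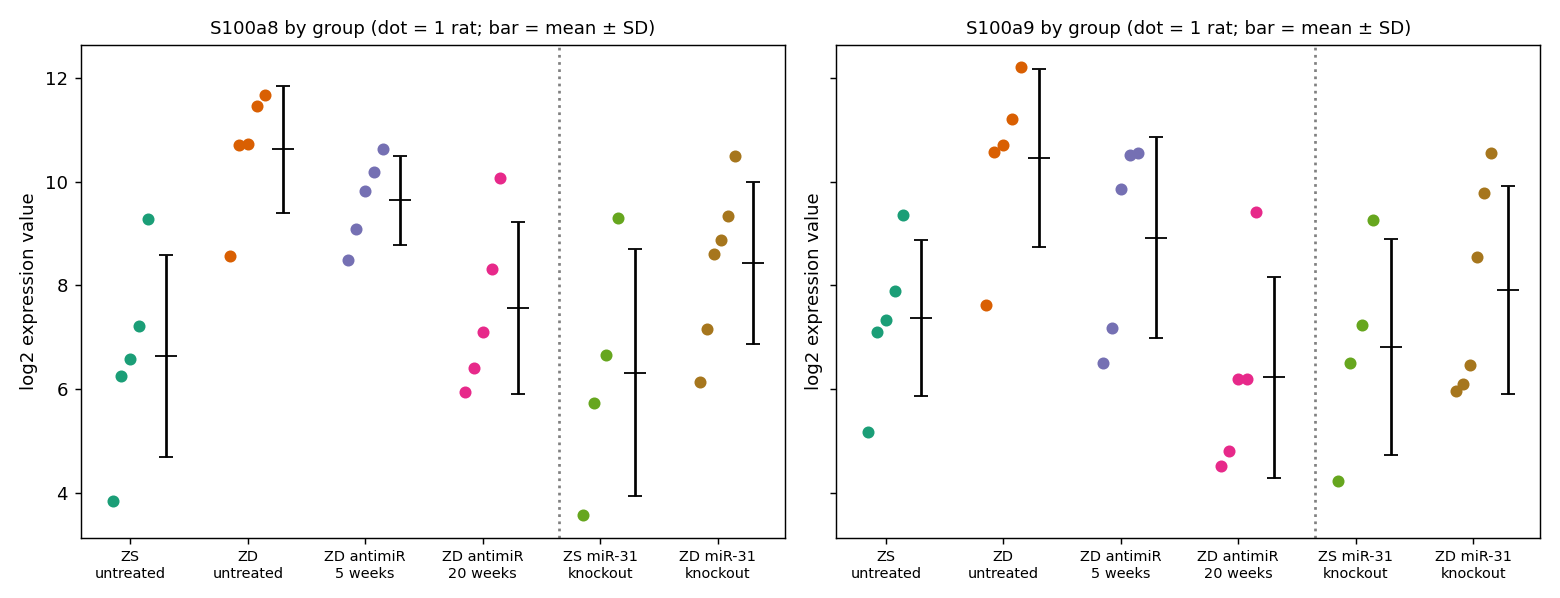
Log2 expression of S100a8 (left) and S100a9 (right) in each of the 6 groups, with 1 dot for each rat and bars for the group mean and SD; the dotted line parts the unedited from the knockout arrays. Untreated ZD rats had the highest mean of both genes, 10.62 and 10.46, and every group spread over more than 2 log2 units, so that groups next to each other in the order overlapped.

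By group mean, S100a8 was ordered from untreated ZD through 5-week antimiR, ZD knockout, 20-week antimiR and untreated ZS to ZS knockout. S100a9 had the same first 3 groups, followed by untreated ZS, ZS knockout and, lowest of all, 20-week antimiR. Each group overlapped the next one in the order for both genes, and the order was the same after quantile normalization and after median centring of the arrays. Few genes varied as much from rat to rat. The within-group SD was 1.64 for S100a8 and 1.87 for S100a9, which ranked 19 and 6 from the top among the 14217 genes, against 0.163 for the median gene.

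The effect of zinc deficiency was asked in unedited rats without antimiR. S100a8 rose on ZD by 3.99 log2 units (SE 0.98, 95% interval 1.97 to 6.01, limma adjusted p = 0.00792), a 15.9-fold difference, and 4 of the 5 ZD arrays exceeded all 5 ZS arrays. S100a9 was 3.10 higher on ZD (SE 1.12, 95% interval 0.79 to 5.40), an 8.55-fold difference that did not pass the threshold of 0.05 (limma adjusted p = 0.0643). S100a9 passed without ZD array 15 (3.81, limma adjusted p = 0.0225) or without ZS array 18 (3.59, limma adjusted p = 0.0462), over a range of limma adjusted p from 0.0225 to 0.167 when each array was left out. S100a8 passed in each of 10 refits with an array removed, with changes from 3.29 to 4.65. By size, these were the increases ranked 3 and 7 among all genes. Of the 14217 genes, 13.9% passed in either direction, 6.94% rose and 6.95% fell, and 11.4% had diets that did not overlap, which was true of neither subunit.

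Smooth muscle RNA differed between the diets in the opposite sense. Of 14 smooth muscle markers 11 fell on ZD and 0 rose, beside 6.95% and 6.94% of all genes, and their summed level, as a mean over the list, was 7.46 to 8.38 on ZD arrays, below the 9.08 to 10.49 of ZS arrays. With that mean as a covariate, the diet difference was 1.25 for S100a8 (limma adjusted p = 0.621) and 0.97 for S100a9 (limma adjusted p = 0.803). The covariate itself differed with diet, so this fit also takes out a diet effect.

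Whether antimiR lowered calprotectin expression was asked against the same untreated ZD rats, which serve as controls on both time points. After 5 weeks the change of S100a8 was -0.98 (SE 0.98, 95% interval -3.00 to 1.04, limma adjusted p = 0.853) and that of S100a9 was -1.54 (SE 1.12, 95% interval -3.85 to 0.76, limma adjusted p = 0.803). Neither passed, nor did any other gene with limma (0% of genes). Of the 14217 genes 548 were higher and 473 lower at an unadjusted p under 0.05, a threshold that genes without a change also reach. After 20 weeks the change of S100a8 was -3.06 (SE 0.98, 95% interval -5.07 to -1.04, limma adjusted p = 0.134), 8.32-fold lower. That of S100a9 was -4.24 (SE 1.12, 95% interval -6.54 to -1.93, limma adjusted p = 0.0739), 18.9-fold lower. Neither subunit passed, although these were the decreases ranked 3 and 1 by size among all genes, where 0.647% of genes passed and 0.485% fell.

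The 20-week result turned on a few arrays. Without 20-week array 2, where both genes were high, the change was -3.68 for S100a8 (limma adjusted p = 0.0434) and -5.03 for S100a9 (limma adjusted p = 0.0188), and both passed. S100a9 also passed without untreated ZD array 15 (-4.95, limma adjusted p = 0.0208). With array weights, which give less weight to arrays far from their group, the change was -3.76 for S100a8 (limma adjusted p = 0.029) and -4.97 for S100a9 (limma adjusted p = 0.0132), and both passed. Across the 11 other settings the limma adjusted p ran from 0.029 to 0.373 for S100a8 and from 0.0132 to 0.187 for S100a9, and with 1 array left out from 0.0434 to 0.315 and from 0.0188 to 0.196. Among the 11 settings the highest p came with the smooth muscle mean as a covariate, where the change was -1.76 for S100a8 and -3.23 for S100a9. That mean ran from 7.39 to 9.93 after 20 weeks, against 7.46 to 8.38 without antimiR, and 0 of 14 markers passed with limma (7 higher and 0 lower at an unadjusted p under 0.05). Over all 14217 genes 942 were higher and 1166 lower at that unadjusted p. Between the antimiR groups, 20 minus 5 weeks, the difference was -2.07 for S100a8 (95% interval -4.09 to -0.06, limma adjusted p = 0.797) and -2.69 for S100a9 (95% interval -5.00 to -0.39, limma adjusted p = 0.745). In that comparison 0.0211% of genes passed.

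Set beside untreated ZS rats, the 5-week group still had S100a8 3.01 higher (95% interval 0.99 to 5.03, limma adjusted p = 0.0528, where 9.08% of genes passed) and S100a9 1.55 higher (95% interval -0.75 to 3.86, limma adjusted p = 0.435). Without ZS array 18, S100a8 was 3.67 higher and passed (limma adjusted p = 0.0242, in a range from 0.0242 to 0.159 when each array was left out). Of the 14 smooth muscle markers 5 fell in the 5-week group relative to ZS and 0 rose, with a median of -1.30 and a list mean of 7.53 to 9.50 in the 5-week rats. With that mean as a covariate S100a8 was 1.12 higher (limma adjusted p = 0.592) and S100a9 0.0815 higher (limma adjusted p = 0.987). In the 20-week group S100a8 was 0.93 above ZS (95% interval -1.08 to 2.95, limma adjusted p = 0.669, where 3.63% of genes passed) and S100a9 differed from it by -1.14 (95% interval -3.44 to 1.16, limma adjusted p = 0.642). With the covariate S100a8 turned to -0.51 (limma adjusted p = 0.846) and S100a9 stood at -2.26 (limma adjusted p = 0.366), and 0 of the 14 markers passed with limma (0 higher and 11 lower at an unadjusted p under 0.05). Over all 14217 genes 1279 were higher and 1406 lower at that unadjusted p. Both 20-week intervals reach more than 1 log2 unit to either side of 0, so they do not show equal levels.

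In rats without miR-31, S100a8 was 2.12 higher on ZD than on ZS (SE 1.00, 95% interval 0.06 to 4.18, limma adjusted p = 0.133) and S100a9 was 1.09 higher (SE 1.15, 95% interval -1.26 to 3.45, limma adjusted p = 0.539). Neither passed, where 21.4% of genes passed and 9.47% rose. ZS knockout array 33, at 9.30 and 9.27, lay inside the ZD knockout range, and without it S100a8 was 3.12 higher on ZD and passed (limma adjusted p = 0.0308, in a range from 0.0308 to 0.512 when each array was left out). The mean of the smooth muscle markers was 9.41 to 10.97 in these ZD rats and 10.79 to 11.70 in the ZS rats, and 6 of 14 fell on ZD, or 2 of 14 without ZS knockout array 32 and 10 of 14 without ZD knockout array 36. With that mean as a covariate the diet difference was 0.32 for S100a8 (limma adjusted p = 0.877) and turned to -0.31 for S100a9 (limma adjusted p = 0.911). The diet effect in knockout rats minus that in unedited rats was -1.87 for S100a8 (SE 1.40, 95% interval -4.75 to 1.02, limma adjusted p = 0.464) and -2.00 for S100a9 (SE 1.60, 95% interval -5.29 to 1.29, limma adjusted p = 0.498). A difference of the diet effects was not detected, where 8.39% of genes passed, and the intervals allow a large one.

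On ZD, both subunits fell in knockout relative to unedited rats, with a change of -2.19 for S100a8 (SE 0.94, limma adjusted p = 0.0491) and of -2.56 for S100a9 (SE 1.07, limma adjusted p = 0.0439). This comparison crosses the experiments and the 2 sets of arrays with unlike medians, and 57.2% of all genes passed in it, 5.71% as decreases. Genotype and experiment cannot be told apart here. The median gene stood 0.26 higher on the knockout arrays, and after median centring the changes were -2.62 and -2.99. All 14 smooth muscle markers rose in this comparison, with a median of 2.36. With their mean as a covariate S100a8 turned to 1.10 (limma adjusted p = 0.463) and S100a9 stood at -0.0054 (limma adjusted p = 0.999), and array weights also ended both calls (-2.05, limma adjusted p = 0.0546, and -2.30, limma adjusted p = 0.0575). S100a8 no longer passed in 8 and S100a9 in 7 of 11 refits with an array removed, with changes from -2.70 to -1.73 and from -3.27 to -2.12. The arrays concerned were ZD arrays 11 to 14 and knockout arrays 35, 38 and 39 for both, with knockout array 36 for S100a8. On ZS the differences were -0.32 (limma adjusted p = 0.813) and -0.56 (limma adjusted p = 0.71), with 57.1% of genes passed. There 12 of the 14 smooth muscle markers rose, and with the covariate the differences turned to 2.03 (limma adjusted p = 0.103) and 1.27 (limma adjusted p = 0.452).

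Within groups the subunits moved together from rat to rat. Deviations from the group means correlated with Pearson r = 0.873 over the 30 arrays (permutation within groups, two-sided p = 1e-05, the smallest the 100000 permutations can give, adjusted p = 0.00013 over 13 relations) and Spearman rho = 0.892 (permutation p = 1e-05). Without the 2 arrays farthest from the median of S100a8, ZS array 19 and ZS knockout array 32, r was 0.848. It was 0.854 over the 20 unedited arrays (permutation p = 5e-05) and 0.903 over the 10 knockout arrays (permutation p = 0.00175). In the 6 ZD knockout rats alone r was 0.847 (exact permutation p = 0.0167) and rho 0.886 (exact permutation p = 0.0333). The rats of untreated ZD and of ZS knockout had the same order for both genes. In the 20-week group 8 of 10 pairs of rats had the same order, in the 5-week and untreated ZS groups 9 of 10, and in ZD knockout 13 of 15.

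**Figure D2:**
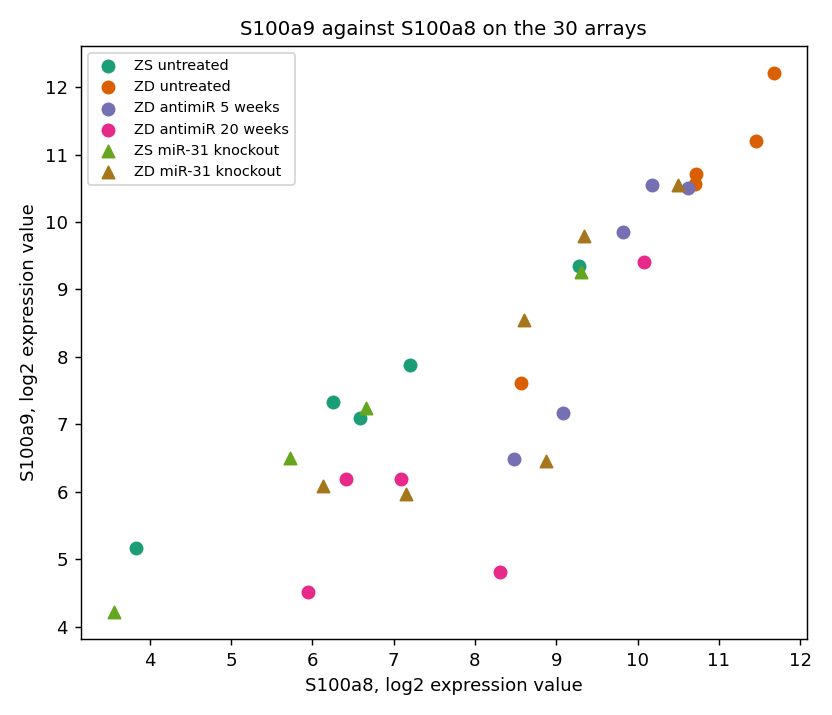
Log2 expression of S100a9 against that of S100a8, 1 point for each of the 30 arrays, with circles for unedited and triangles for knockout rats. The points follow a rising band (within-group r = 0.873), and several antimiR and ZD knockout arrays lie to the right of the ZS arrays, with less S100a9 at a given S100a8.

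Whether both subunits changed by equal amounts was asked of their difference within each rat. This difference, S100a8 minus S100a9, has no meaning as a level because the probe sets differ. Its change between groups compares the changes that both probe sets read. Whether these probe sets respond alike to a change of RNA was not tested, so unequal changes of the readings need not be unequal changes of the transcripts. It averaged -0.73 (SD 0.49, n = 5) in untreated ZS rats, 0.16 (SD 0.53, n = 5) in untreated ZD, 0.72 (SD 1.14, n = 5) after 5 weeks and 1.34 (SD 1.28, n = 5) after 20 weeks of antimiR. It averaged -0.49 (SD 0.36, n = 4) in ZS knockout and 0.54 (SD 1.07, n = 6) in ZD knockout rats. All 5 untreated ZS values, from -1.33 to -0.07, lay under all 5 values of the 20-week group, from 0.22 to 3.50. The highest values, 3.50 in 20-week array 1 and 2.42 in ZD knockout array 38, came from rats with middling S100a8 and low S100a9.

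Exact two-sided permutation tests over the rats of each pair of groups were adjusted over 7 comparisons. The S100a8 difference exceeded that of S100a9 by 0.89 between ZS and ZD (SE 0.32, exact p = 0.0238, adjusted p = 0.0556). The excess was 1.46 between ZS and 5-week antimiR (exact p = 0.0159, adjusted p = 0.0556) and 2.07 between ZS and 20-week antimiR (SE 0.61, exact p = 0.00794, the smallest these groups allow, adjusted p = 0.0556). These comparisons share the ZS rats, and none passed after adjustment. Over 7 comparisons, a single result at the smallest exact p these groups allow cannot fall under 0.05 after adjustment. Against untreated ZD rats the difference was 0.56 at 5 weeks (exact p = 0.349, adjusted p = 0.407) and 1.18 at 20 weeks (exact p = 0.0714, adjusted p = 0.125). In knockout rats it was 1.03 between the diets (exact p = 0.0952, adjusted p = 0.133), and between the antimiR groups 0.62 (exact p = 0.437, adjusted p = 0.437). The ZS to ZD difference passed without ZD array 11 (1.07, exact test adjusted p = 0.037) and the ZS to 5-week difference without 5-week array 8 (1.73, exact test adjusted p = 0.0278), within ranges of 0.037 to 0.125 and 0.0278 to 0.125 when each array was left out.

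**Figure D3:**
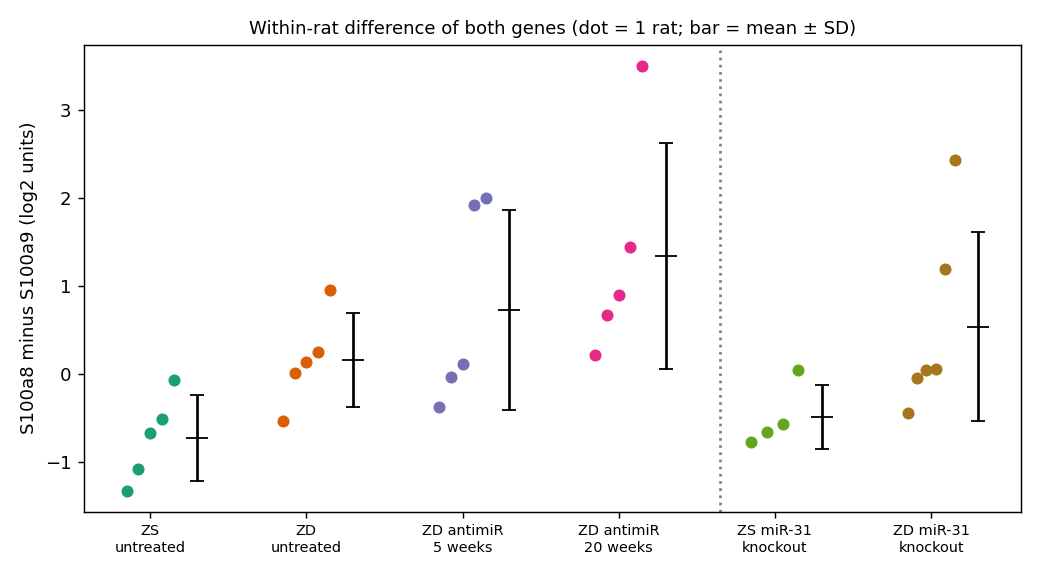
Within-rat difference of log2 expression, S100a8 minus S100a9, by group, with 1 dot for each rat and bars for the group mean and SD; the dotted line parts unedited from knockout arrays. Values compare groups only, since the position of 0 depends on the probe sets. All untreated ZS rats lie under all rats with 20 weeks of antimiR, with the widest spread after 20 weeks (SD 1.28).

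On chromosome 2 the calprotectin genes lie among other S100 genes, followed by genes of the cornified envelope, the cross-linked shell of the outer squamous cells. The response to diet differed from gene to gene along this stretch, while over all genes 6.94% rose and 6.95% fell. Of the 8 measured genes before S100a8, S100a1 fell on ZD by 0.66 (limma adjusted p = 0.0071) and S100a16 by 0.24 (limma adjusted p = 0.0227), and the calcium-binding genes S100a13, S100a14, S100a3, S100a4, S100a5 and S100a6 did not pass. Leaving out ZD array 12 or 14 or ZS array 18 ended the call of S100a16. Of the 8 after S100a9, the small proline-rich genes Sprr1b and Sprr2d rose, by 2.35 (limma adjusted p = 0.00218) and 1.63 (limma adjusted p = 0.0192). For Sprr2d the same held of ZD array 14 and ZS arrays 16 and 20. S100a7l2, the nearest measured gene after S100a9, differed by -1.97 on ZD (limma adjusted p = 0.298), with means of 7.65 (SD 1.57, n = 5) on ZD and 9.62 (SD 2.47, n = 5) on ZS. After 20 weeks of antimiR 0 of these 16 neighbours passed with limma (2 higher and 3 lower at an unadjusted p under 0.05). Over all 14217 genes 0.647% passed there, with 942 higher and 1166 lower at that unadjusted p.

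**Figure D4:**
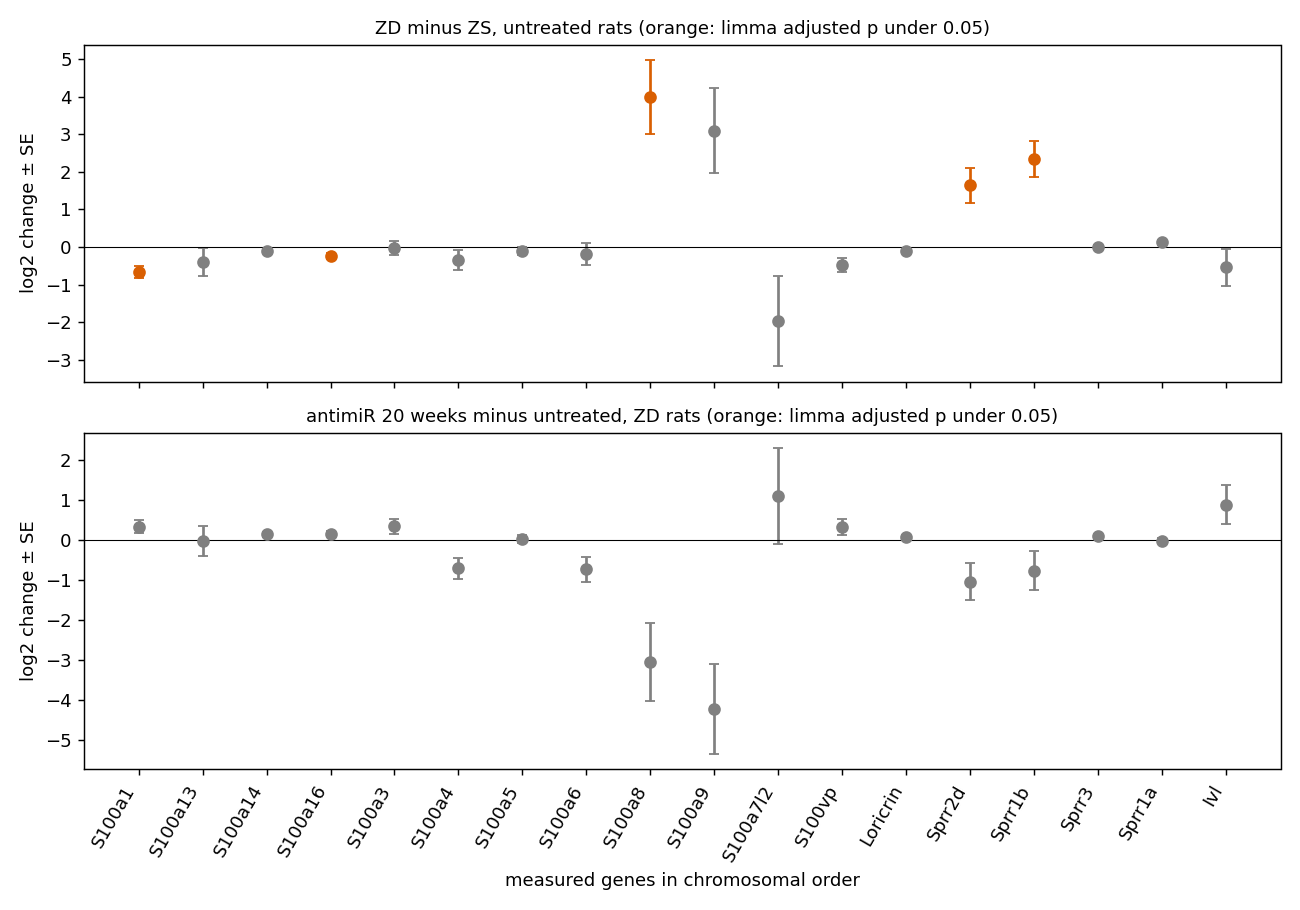
Fitted log2 change with its SE for S100a8, S100a9 and the 8 nearest measured genes on each side, in chromosomal order; the upper panel compares the diets and the lower panel 20 weeks of antimiR with no antimiR on ZD, and orange marks genes that passed. The calprotectin genes stand furthest from 0 in both panels, at 3.99 and 3.10 above and at -3.06 and -4.24 below.

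Of 12 measured genes of an S100 list, which leaves out S100a7l2 and S100vp, 1 rose and 2 fell on ZD beside 6.94% and 6.95% of all genes, with a median change of -0.19 against 0.00 over all genes. The riser was S100g, an intestinal-type calcium carrier, which went from a mean of 3.31 (SD 0.25, n = 5) on ZS to 4.42 (SD 0.46, n = 5) on ZD, a change of 1.11 (limma adjusted p = 0.000172). S100g also fell after 20 weeks of antimiR, by 0.87 to a mean of 3.55 (SD 0.32, n = 5, limma adjusted p = 0.0191), the direction in which S100a8 and S100a9 stood. All of these levels lie near the low end of the deposited values, which began at 2.11. That call was lost without 20-week array 3 or 5 or ZD array 12. The others, among them the annexin partners S100a10 and S100a11, did not pass after 20 weeks.

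All 18 listed receptors and signal adaptors of extracellular calprotectin were measured. On ZD 3 rose and 0 fell, beside 6.94% and 6.95% of all genes, with a list median of 0.14. Emb, which encodes embigin, a reported calprotectin receptor, rose by 1.59 (SE 0.26, limma adjusted p = 0.000301). Tlr4 rose by 0.94 (SE 0.22, limma adjusted p = 0.00518), and its co-receptor Ly96 rose by 0.57 (SE 0.18, limma adjusted p = 0.035), a call that ended in 7 of 10 refits with an array removed. Bsg, another immunoglobulin-type receptor, stood at 0.11 (limma adjusted p = 0.56) and Ager, the receptor of glycated proteins, at 0.01 (limma adjusted p = 0.981). Mcam, also on the list, stood at -0.81 (limma adjusted p = 0.0745). Within groups, Tlr4 correlated with S100a8 at r = 0.63 and with S100a9 at r = 0.58 over the 30 arrays. Emb had r of 0.25 and 0.05, and Mcam r of -0.66 and -0.49. Of the 18, 11 had r above 0 with each subunit, with medians of 0.14 for S100a8 and 0.08 for S100a9. After 20 weeks of antimiR 0 of the 18 passed with limma (0 higher and 2 lower at an unadjusted p under 0.05), with Emb at -0.77 (limma adjusted p = 0.163). Over all 14217 genes 0.647% passed there, with 942 higher and 1166 lower at that unadjusted p. In knockout rats 5 of the 18 rose and 4 fell on ZD, beside 9.47% and 12% of all genes, among them Emb at 0.81 (limma adjusted p = 0.0327) and Tlr4 at 0.66 (limma adjusted p = 0.0344). Without knockout array 31, 32 or 37 the 5 were 2, and without array 39 they were 3, while without array 32 the 4 that fell were 2.

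Among 23 transcription factors linked to the calprotectin promoters 5 rose on ZD, beside 6.94% of all genes, and 0 fell, with a median of 0.19. Hif1a, the hypoxia factor, rose by 0.83 (SE 0.13, limma adjusted p = 0.000187), and the C/EBP family gene Cebpd rose by 0.87 (SE 0.18, limma adjusted p = 0.00265). The AP-1 genes Junb and Fosl1 rose by 0.64 (limma adjusted p = 0.0015) and 2.01 (limma adjusted p = 0.00645). Cebpb, the C/EBP member best known from the S100a9 promoter, stood at 0.26 (limma adjusted p = 0.0508). The fifth, Gata3, no longer passed in 8 of 10 refits with an array removed. After 20 weeks of antimiR 0 of 23 passed with limma (0 higher and 5 lower at an unadjusted p under 0.05), with Cebpd at -0.67 (limma adjusted p = 0.0802) and Fosl1 at -1.50 (limma adjusted p = 0.134). Over all 14217 genes 0.647% passed there, with 942 higher and 1166 lower at that unadjusted p. In knockout rats 5 of 23 rose and 3 fell on ZD, beside 9.47% and 12% of all genes, with Junb at 0.89 (SE 0.13, limma adjusted p = 2.94e-05). From rat to rat within groups, Hif1a correlated with S100a8 at r = 0.40, Fosl1 at r = 0.38, Junb at r = 0.31 and Cebpd at r = 0.11. With S100a9 these were 0.37, 0.21, 0.22 and 0.31. The 23 ran from -0.50 to 0.44 with S100a8. Of the 23, 15 had r above 0 with S100a8 and 17 with S100a9, with medians of 0.11 and 0.13.

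Of 24 measured cytokines and receptors that induce calprotectin, Il1b rose on ZD by 0.95 (limma adjusted p = 0.0294), the 1 riser of its list beside 6.94% of all genes, with a list median of 0.05. Il1b no longer passed in 6 of 10 such refits, and it did not follow the subunits within groups (r = -0.11 with S100a8 and -0.05 with S100a9). Of the 24, 15 had r above 0 with each subunit, with medians of 0.15 for S100a8 and 0.16 for S100a9. At an unadjusted p under 0.05, 1 of the 24 was higher on ZD and 4 lower, beside 1984 and 2003 of all 14217 genes. Il33 stood at -1.45 (limma adjusted p = 0.0676). Of 14 leukocyte-attracting chemokines 3 rose on ZD, beside 6.94% of all genes, with a median of 0.24. These were Ccl2 at 2.45 (limma adjusted p = 0.00268), which draws monocytes, and the neutrophil attractants Cxcl1 at 1.68 (limma adjusted p = 0.00678) and Cxcl2 at 1.21 (limma adjusted p = 0.00665). After 20 weeks of antimiR Cxcl1 fell by 1.81 (limma adjusted p = 0.0294) and Cxcl2 by 1.20 (limma adjusted p = 0.04997), 2 of 14 beside 0.485% of all genes, and both calls ended when 20-week array 1, 3, 4 or 5 or ZD array 11, 12 or 14 was left out. For Cxcl1 this held of ZD array 13 too. The cytokine list had 0 of 24 past the threshold at 20 weeks with limma (2 higher and 4 lower at an unadjusted p under 0.05). Over all 14217 genes 0.647% passed there, with 942 higher and 1166 lower at that unadjusted p.

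Metal binding and antimicrobial defence are roles that calprotectin shares with other genes. Of 17 such genes measured 3 rose on ZD and 0 fell, beside 6.94% and 6.95% of all genes, with a median of -0.02. The metallothioneins Mt1 and Mt2A rose by 0.59 (limma adjusted p = 0.0212) and 0.86 (limma adjusted p = 0.0318), and the lysozyme gene Lyz2 by 1.24 (limma adjusted p = 0.0421). Mt1 was lost in 3, Mt2A in 4 and Lyz2 in 9 of 10 such refits, and 0 of the 17 rose without ZD array 14 and 1 without ZD array 12 or ZS array 17, 18 or 20. Lcn2, which sequesters bacterial iron carriers, stood at 0.56 (limma adjusted p = 0.0508). Calprotectin acts on the phagocyte NADPH oxidase, and of 11 measured oxidase genes 2 rose on ZD beside 6.94% of all genes. These were Nox1 at 0.70 (limma adjusted p = 0.0037) and Duoxa1 at 0.48 (limma adjusted p = 0.027), both of epithelia. The phagocyte subunit gene Cybb stood at 0.77 (limma adjusted p = 0.0612), a larger change that did not pass. A difference between epithelial and phagocyte oxidase genes was not tested. Removing ZD array 11 or 14, ZS array 17 or ZS array 19 ended the call of Duoxa1.

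Neutrophils are the cells richest in calprotectin. Of 25 listed neutrophil markers 14 were measured, and the granule genes Mpo, Elane, Ltf and Ctsg were not among them. The list had a median change of 0.06 on ZD, with 1 rising and 1 falling beside 6.94% and 6.95% of all genes. Ceacam1, which squamous cells express too, rose by 1.64 (limma adjusted p = 0.00203), and Il1r2 fell by 0.89 (limma adjusted p = 0.0172), a call lost without ZD array 14 or ZS array 19. Lcn2 stood at 0.56 (limma adjusted p = 0.0508) and Mmp9 at 1.16 (limma adjusted p = 0.076). The granulocyte receptor Csf3r stood at 0.04 (limma adjusted p = 0.805) and the collagenase Mmp8 at 0.08 (limma adjusted p = 0.609). The means of Csf3r and Mmp8 were 3.13 and 3.36 on ZD against 3.09 and 3.28 on ZS. These lie near the low end of the deposited values, which began at 2.11. At an unadjusted p under 0.05, 3 of the 14 were higher on ZD and 3 lower, beside 1984 and 2003 of all 14217 genes. The mean of the neutrophil list was 4.69 to 5.18 in ZD rats, 4.65 to 4.83 in ZS rats, 4.62 to 4.93 after 5 weeks and 4.62 to 5.01 after 20 weeks of antimiR. In each unedited group 11 or 12 of the 14 lay under the median gene of the arrays. Of 19 macrophage markers Lyz2 rose on ZD and 0 fell, and their mean was 6.17 to 6.35 in ZD rats against 5.86 to 6.10 in ZS rats. After 20 weeks of antimiR 0 of 14 neutrophil and 0 of 19 macrophage markers passed with limma, with medians of 0.00 and -0.60, while 3 neutrophil markers were higher and 3 lower, and 0 macrophage markers higher and 10 lower, at an unadjusted p under 0.05. Over all 14217 genes 0.647% passed there, with 942 higher and 1166 lower at that unadjusted p.

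Stress keratins, cornified envelope genes and epithelial alarm genes of squamous epithelium were counted as a single list. Of 25 measured 8 rose on ZD and 0 fell, with a median of 0.22, beside 6.94% and 6.95% of all genes. The list is not one of injury alone. Its envelope genes Loricrin and Sprr3 already had means of 14.04 and 13.91 in untreated ZS rats. On ZD they stood at -0.10 (limma adjusted p = 0.257) and -0.01 (limma adjusted p = 0.963), whereas Sprr1b and Sprr2d rose. Krt6c, a keratin of wounded epithelium, rose by 3.57 (SE 0.52, limma adjusted p = 0.000118). The protease inhibitor genes Serpinb3 and Stfa2l2 rose by 4.15 (SE 0.74) and 3.07 (SE 0.46), and Tmprss11d, a surface protease of squamous epithelia, rose by 2.04 (SE 0.36), with limma adjusted p values of 0.000709, 0.000125 and 0.000596. After 20 weeks of antimiR 2 of the 25 fell beside 0.485% of all genes, Krt6c by 2.65 (limma adjusted p = 0.0191) and Krt17 by 3.01 (limma adjusted p = 0.02). Krt6c was lost without 20-week array 3 or 4 or ZD array 12 or 14, and Krt17 also without 20-week array 5. In knockout rats 11 of the 25 rose on ZD and 0 fell, beside 9.47% and 12% of all genes, with a median of 0.46, among them Krt6c at 1.54 (limma adjusted p = 0.0407) and Tmprss11d at 1.04 (limma adjusted p = 0.0431). Both calls ended when knockout array 31, 32, 34, 37, 38 or 39 was left out, and the count of 11 was then 7, or 4 without ZS knockout array 32.

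The rat-to-rat variation of the subunits within groups was set against the mean of 6 marker lists. S100a8 correlated with the stress and cornification list at r = 0.656 (permutation p = 0.00076, adjusted p = 0.00329) and rho = 0.641 (permutation p = 0.00081). Without the 2 arrays farthest from the median of S100a8 r was 0.755, and r was 0.559 over unedited and 0.792 over knockout arrays (permutation p = 0.0178 and 0.0245, adjusted p = 0.0578 and 0.159). S100a9 correlated with that list at r = 0.595 (permutation p = 0.0019, adjusted p = 0.00618) and rho = 0.548 (permutation p = 0.00469). Without its 2 farthest arrays, 20-week array 2 and ZD array 15, r was 0.443 (permutation p = 0.0422, adjusted p = 0.0924), so the relation of S100a9 rests in part on those rats. It was 0.547 over unedited and 0.669 over knockout arrays (permutation p = 0.0226 and 0.0504, adjusted p = 0.0587 and 0.218). With the smooth muscle list S100a8 correlated at r = -0.616 (permutation p = 0.0004, adjusted p = 0.0026) and rho = -0.567 (permutation p = 0.00252), at -0.548 without the 2 farthest arrays, at -0.732 over unedited and at -0.437 over knockout arrays (permutation p = 0.193).

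S100a9 correlated with smooth muscle at r = -0.42 and rho = -0.372 and did not pass (permutation p = 0.0424, adjusted p = 0.0787, and rho permutation p = 0.0683). Its r was -0.241 without the 2 farthest arrays, -0.537 over unedited and -0.176 over knockout arrays. With the neutrophil list S100a8 correlated at r = 0.39 (permutation p = 0.0182, adjusted p = 0.0472) and rho = 0.487 (permutation p = 0.00824), and at 0.438 without the 2 farthest arrays (permutation p = 0.0207, adjusted p = 0.0673). Over the unedited arrays r was 0.54 and over the knockout arrays 0.0274, a difference that was not tested. For S100a9 and neutrophil markers r was 0.42 and rho 0.454 (permutation p = 0.0307 and 0.0185, adjusted p = 0.0666 and 0.0402). Gene by gene, the 14 neutrophil markers had a median r of 0.08 with each subunit, with 9 above 0 for S100a8 and 10 for S100a9. With S100a8 they ran from -0.29 to 0.63, and the highest was Ceacam1, which squamous cells express too. Next were Lcn2 at 0.42 and the chemokine receptor Cxcr2 at 0.41, which with S100a9 had r of 0.44 and 0.29. For macrophage markers r was -0.179 with S100a8 and -0.084 with S100a9, for squamous markers 0.293 and 0.232, and for skeletal muscle markers 0.148 and 0.202, and none of these passed (permutation p from 0.195 to 0.745). The part of muscle or leukocyte content in the subunit levels was not tested beyond these values.

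**Figure D5:**
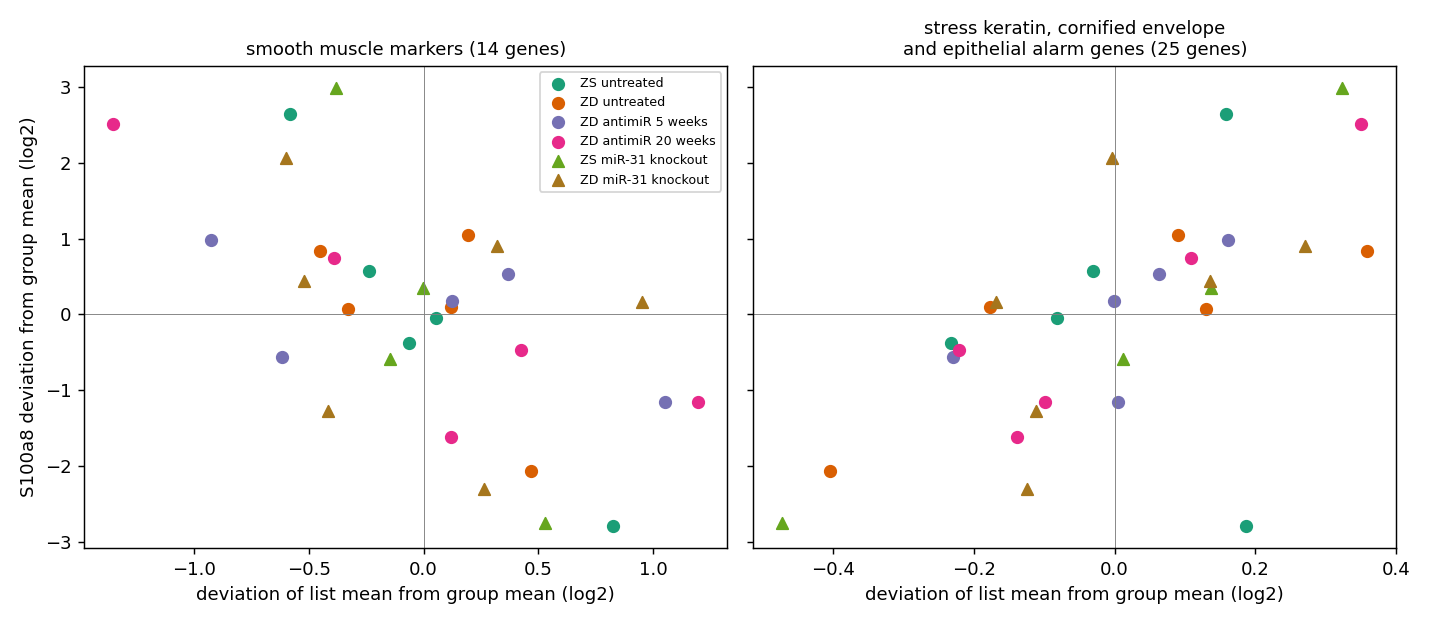
Deviation of S100a8 from its group mean against the deviation of the mean of 14 smooth muscle markers (left) and of 25 stress keratin, cornified envelope and epithelial alarm genes (right), in log2 units, 1 point for each of the 30 arrays. Points slope down on the left (r = -0.616) and up on the right (r = 0.656), with knockout arrays as triangles.

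Gene by gene, the pattern within groups gave S100a9 as the gene most like S100a8 among 13978 genes ranked, and S100a8 as the most like S100a9 (r = 0.87 over the 30 arrays). This is a description with no test, and the arrays share their groups and RNA extracts. For S100a8 the next were the actin-binding gene Twf1 (r = 0.84), the protease inhibitor Spint2 (0.83), the heparanase Hpse (0.82), the nucleotide receptor P2ry2 (0.82), Vsig10l (0.81), the phospholipase Pla2g12a (0.77), Tmprss11d (0.76), the kallikrein Klk10 (0.75) and the envelope cross-linker Tgm1 (0.74). For S100a9 they were Ube2l6, a conjugating enzyme of the interferon-induced modifier Isg15 (0.77), Twf1 (0.76), Tmem120a (0.72), the mitochondrial superoxide dismutase Sod2 (0.71), the NF-kB cofactor Nfkbiz (0.71), the lactoperoxidase Lpo (0.70), the retinol carrier Rbp2 (0.70), Nova2 (0.70) and P2ry2 (0.70). Twf1 and P2ry2 stood in the first 10 of both subunits. Of the 25 stress and cornification genes 22 had r above 0 with S100a8 and 23 with S100a9, with median r of 0.38 and 0.40, while the median over all genes was 0.02 and 0.00. Of the 14 smooth muscle markers 0 had r above 0 with either subunit, with medians of -0.60 and -0.41.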

How the data were processed

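RNA of 30 rats was hybridised to 1 Affymetrix array each. The authors deposited log2 expression values per probe set, made with Affymetrix Expression Console and RMA per the submitters' processing notes; versions are not given in the sources used here. Per the labels' protocols, RNA integrity numbers were at least 8. Of 31099 probe sets, 20826 had 1 gene symbol, 436 several, 9780 none and 57 were controls. Each of 14217 genes was read from its brightest probe set by mean, and 4525 genes had more than 1. The probe annotation is old, and 20758 probe sets were updated by gene identifier.

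Groups followed the titles. limma 3.58.1 in R 4.3.3 fitted 1 mean per group on all 30 arrays, with Benjamini-Hochberg adjustment over 14217 genes within a comparison and a threshold of 0.05. Permutation tests used Python 3.11.15 with scipy 1.17.1 and numpy 2.4.6. Relations between measures used deviations from the group means, 100000 permutations within groups and Benjamini-Hochberg adjustment over 13 relations. The fit was tested on simulated data. The members, the 17 gene lists and the tests were chosen with earlier results of these data known. Apart from both subunits, genes were named as S100 genes, chromosomal neighbours, the 10 most like each subunit, or as the up to 4 genes per list of lowest adjusted p for diet and for 20 weeks of antimiR. Bsg, Ager, Cebpb, Csf3r, Mmp8 and Gata3 were named after their values were seen. Alternatives were array weights, quantile normalization, median centring, eBayes with trend and robust, and fits of the compared groups alone. Others were a filter on the dimmest 30% of genes, and only arrays of the same set, unedited or knockout. All probe sets or their mean, muscle covariates and leaving out each array were used as well. With 4 to 6 arrays in a group, their number limits the precision.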

Additional observations from a re-analysis of the deposited data

How the results depend on the processing

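Each result was recomputed under up to 11 other settings and with each array left out. S100a8 kept its call and direction for diet in all fits except that with the smooth muscle mean as a covariate (1.25, limma adjusted p = 0.621). With that covariate S100a8 also reversed for 20 weeks of antimiR against ZS (-0.51) and for knockout against unedited rats on ZD (1.10) and ZS (2.03). S100a9 reversed for diet in knockout rats (-0.31) and for knockout on ZS (1.27), and lost its call for knockout on ZD (-0.0054). Array weights brought past the threshold S100a9 for diet (3.11) and, for 20 weeks of antimiR against ZD, S100a8 (-3.76) and S100a9 (-4.97); for knockout on ZD they lost S100a8 (-2.05) and S100a9 (-2.30), and S100a8 reversed on ZS (0.25). Fitting the compared groups alone brought S100a9 past it for diet (3.10). S100a8 after 5 weeks of antimiR against ZS passed with median centring (3.05), without the dimmest 30% of genes (3.01), with array weights (2.85), with the compared groups alone (3.01) and with arrays of the same set (3.01), and was 1.12 with the smooth muscle covariate. Trend and robust fitting lost S100a8 for knockout on ZD (-2.19). Quantile normalization brought the excess of S100a8 over S100a9 past the threshold for ZD (0.90), 5 weeks (1.43) and 20 weeks (2.08) against ZS. The cause was not tested for these changes. Among other values, r reversed with macrophage markers over unedited arrays for S100a8 (0.0393) and S100a9 (0.0900), with skeletal muscle markers over knockout arrays for S100a8 (-0.0764), and Actg2 for diet in knockout rats with the smooth muscle covariate (0.013).

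With 1 array left out, diet gave 3.29 to 4.65 for S100a8 and 2.55 to 3.81 for S100a9. Against ZD, 20 weeks of antimiR gave -3.68 to -2.65 and -5.03 to -3.80, and 5 weeks against ZS gave 2.31 to 3.67 for S100a8. Diet in knockout rats gave 1.21 to 3.12 and 0.23 to 1.91, its difference from unedited rats -2.78 to -0.87 and -2.86 to -1.18, and 5 weeks against ZD -1.50 to -0.69 and -2.26 to -0.94. Knockout on ZD gave -2.70 to -1.73 and -3.27 to -2.12, and on ZS -1.32 to 0.60 and -1.38 to 0.30, with S100a8 reversed without ZS array 18 (0.34) or ZS knockout array 32 (0.60) and S100a9 without the latter (0.30). The excess of S100a8 over S100a9 ran from 0.70 to 1.07 for diet and from 1.14 to 1.73 for 5 weeks against ZS. The within-group r of the pair ran from 0.854 to 0.909. Over all genes, 1974 passed for diet, 167 with the smooth muscle covariate, and 92 passed for 20 weeks of antimiR, 557 with array weights. No paired analysis was possible because each sample number belongs to a single rat.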

Other observations

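Markers of other cell types were compared with the subunits from rat to rat within groups. The 11 measured lymphocyte markers had a median r of -0.29 with S100a8 (1 of 11 above 0) and -0.20 with S100a9 (0 of 11 above 0). Fibroblast and matrix markers had a median r of -0.30 with S100a8 and -0.21 with S100a9, with 1 of 12 above 0 for each. Mast cell markers had a median r of -0.21 with S100a8 (0 of 9 above 0) and -0.04 with S100a9 (1 of 9 above 0). Skeletal muscle markers had a median r of 0.16 and 0.20.

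On the ZD diet in unedited rats, the beta globin Hbb rose by 1.62 (SE 0.31, limma adjusted p = 0.00134), 1 of 4 measured erythroid markers. The erythroid markers Slc4a1, Ahsp and Alas2 stood at 0.10, -0.13 and 0.02 (limma adjusted p = 0.393, 0.598 and 0.914). With limma 0 of 11 lymphocyte, 0 of 9 mast cell, 0 of 12 fibroblast and 0 of 14 skeletal muscle markers passed. Over all genes 6.94% rose and 6.95% fell. At an unadjusted p under 0.05, 1 lymphocyte marker was higher and 0 lower, 0 mast cell markers were higher or lower, and 2 fibroblast and 1 skeletal muscle markers were lower. Over all 14217 genes 1984 were higher and 2003 lower at that unadjusted p. In knockout rats 9 of 19 macrophage, 4 of 11 lymphocyte and 5 of 12 fibroblast markers fell on ZD, beside 12% of all genes, with medians of -0.68, -0.57 and -0.82. Without ZS knockout array 32 these counts were 3, 0 and 0. Without ZS knockout array 30 they were 15, 10 and 9. With other knockout arrays left out, lymphocyte calls numbered 2 (arrays 35 and 37) or 1 (31, 38 and 39), and fibroblast calls 3 (35, 37 and 38) or 2 (33 and 39). On ZS knockout arrays the mean of the macrophage list ran from 6.45 to 8.26 and that of the lymphocyte list from 5.10 to 7.17, while S100a8 on the same arrays ran from 3.56 to 9.30. Across 18 sets of values, 6 groups each for S100a8, S100a9 and their difference, no rat stood apart by Dixon's test.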
